A study of Homo sapiens with 13 samples.

Results

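The comparison described here sets 1 library of cells grown for 5 days with doxycycline against 1 library of the same cells grown for 5 days without it. The 2 libraries were chosen by their labels, and they are 2 of the 13 libraries of the series. The cells are a stable line made from H9, an established human embryonic stem cell line, that makes the transcription factor NEUROG2 when doxycycline is present. In the doxycycline group the drug was in the medium at 1 µg/ml for all 5 days, and the control group had none. Both groups grew on matrigel in E8, a stem cell medium, for the first 2 days and in 3N, a neural medium, for the other 3, and neither received FGF2. RNA came from 1 well of a plate for each library, so neither group has a replicate, and every difference below is between these libraries. Doxycycline and the inducible gene go together in this design, and no library has the drug without the gene, so their effects cannot be told apart. Whether the line is 1 clone is not given in the sources used here. Levels on day 0 and in the day-11 pair, which had the same treatments for longer (1 library each), are given beside some results for scale.

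NEUROG2 is a proneural basic helix-loop-helix factor. In the embryo such factors bind short DNA sequences called E-boxes together with E proteins, switch on a chain of further transcription factors, and drive progenitors to leave the cell cycle and become neurons. Forced expression of NEUROG2 in human pluripotent stem cells is widely used to make neurons within days, and the submitters describe the product as excitatory neurons that no longer divide. Pluripotent stem cells are themselves a tightly joined, dividing epithelium held in place by factors such as POU5F1, NANOG and SOX2.

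The unit used is CPM, counted reads per 1000000 after the library totals were scaled by the TMM method, and pairs of CPM are given with the control first. A log2 ratio is doxycycline over control after 1 CPM was added to both values. Only genes reaching 10 CPM in 1 or both libraries were compared, and a gene is called higher or lower when the ratio was at least 4-fold. Intervals of folds are exact binomial intervals at 95% and cover counting error only, not the difference between wells. The libraries held 32640698 counts (control) and 47159475 counts (doxycycline). Bulk RNA cannot tell fewer cells of a type from less RNA per cell, and that holds for every value below.

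NEUROG2 (chromosome 4:112513516 to 112516172, GRCh38) stood at 1.34 CPM in the control and 1564 CPM in the doxycycline library, 1166-fold (95% counting interval 866 to 1612) higher. The counts do not separate the cells' own gene from the inducible copy. The EGFP reporter went with it, at 87.2 and 1290.4 CPM, and the mCherry reporter had 0 and 4 counts. Markers of stem cells and neurons matched the labels. In the control library the stem cell factors were present, with POU5F1 at 654, NANOG at 35.5, DPPA4 at 890.2 and LIN28A at 849 CPM, and the neuronal genes STMN2, DCX, MAP2 and ELAVL4 lay between 1.15 and 9.82 CPM. With doxycycline those 4 neuronal genes lay between 356 and 4019 CPM, TUBB3, a neuronal tubulin, was at 194 CPM against 4.08, and SYT1, a vesicle calcium sensor, at 425 against 28.7. POU5F1 (chromosome 6:31164337 to 31180731) was at 5.03 CPM, 130.1-fold (95% counting interval 114 to 149.9) lower, while LIN28A, an RNA-binding protein of stem cells, was still at 473 CPM. Across day 0, the day-5 control, day 5 with doxycycline, the day-11 control and day 11 with doxycycline, NEUROG2 was at 0.456, 1.34, 1564, 6.26 and 1018 CPM. STMN2 was at 2.91, 2.00, 4019, 9.76 and 3666 CPM in that order, and POU5F1 at 1000.4, 654, 5.03, 38.9 and 5.54 CPM. For NEUROG2 and STMN2 both doxycycline libraries stood far above the other 3, and for POU5F1 both stood below them. Most markers of other fates were near 0 in both libraries. SOX17 of endoderm, SOX10 of neural crest and glia, DCN of mesenchyme and PTPRC of blood had 0 CPM in both, and TBXT, MIXL1 and GATA4 of mesendoderm were at or below 0.655 CPM. Exceptions in the control library were COL1A1, a collagen of mesenchyme (726 and 11.5 CPM), and FOXD3, a factor that stem cells share with neural crest (16.3 and 0.0242 CPM).

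The count table lists 60500 genes, of which 38426 had at least 1 count in either library, and 12895 reached the level compared. With doxycycline 1625 of them were higher (12.6%) and 1477 were lower (11.5%), 3102 in all (24.1%). The median log2 ratio of all compared genes was 0.23, with quartiles of -0.77 and 1.18, and 49.8% of genes stayed within 2-fold. Differences of at least 16-fold were found in 421 genes upward and 420 downward, and of at least 64-fold in 97 and 47. At the threshold, 187 genes lay just inside it (absolute log2 ratio of 2 to 2.1) and 211 just outside (1.9 to 2). The largest ratio upward was that of STMN2 (10.39) and the largest downward that of the noncoding RNA ESRG (-8.41). A gene that reached 10 CPM in only 1 of the libraries passed the level through the side where it is high, so counts over such genes describe these libraries and support no further claim. Under scaling by library totals the median of all genes was 0.06 in place of 0.23.

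**Figure D1:**
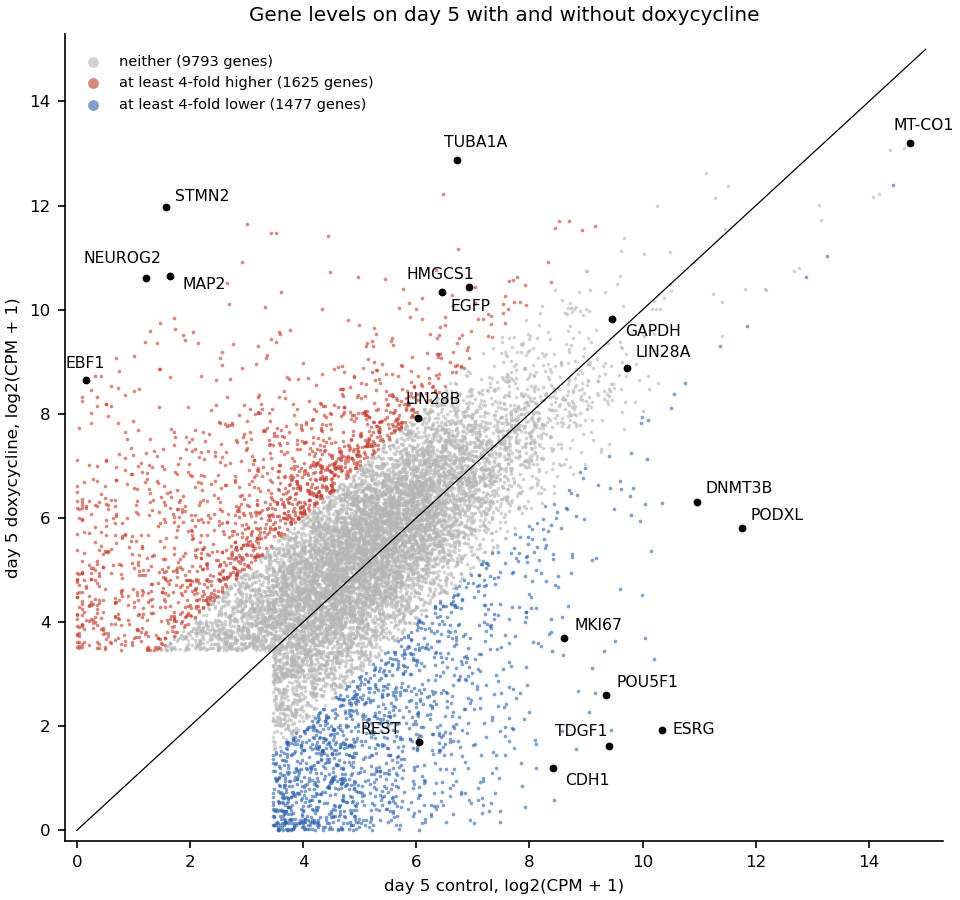
Level of each of the 12895 genes compared in the control library (horizontal axis) and the doxycycline library (vertical axis), both as log2(CPM + 1), with 1625 genes at least 4-fold higher in red and 1477 at least 4-fold lower in blue. STMN2 and NEUROG2 stand far above the line of equal levels, and ESRG, TDGF1, POU5F1 and CDH1 far below it.

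The size of these differences can be set beside the only replicate libraries of the series, 4 pairs from another sequencing run in which every culture had doxycycline for 6 days. These pairs were taken on day 6 or day 12, with or without FGF2, and the day-12 cultures had the drug for only 6 of the 12 days. Treated by the same rule, those pairs had 0, 0, 0 and 2 genes at least 4-fold apart, of 10204 to 10347 compared (at most 0.0196%). Their median absolute log2 ratio was 0.06 to 0.17, against 1.00 for the day-5 pair. The day-5 libraries could vary more than those pairs do, which was not tested. The labels name the members of each pair hES-N2G1 and hES-N2G2 and the day-5 libraries hES-N1, and do not say how these differ.

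**Figure D2:**
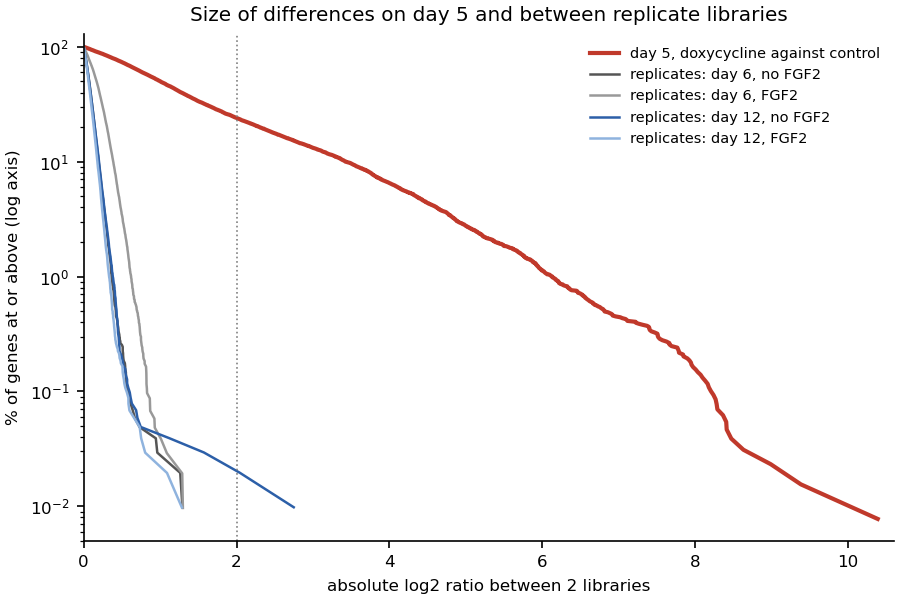
Share of genes (vertical log axis, in %) whose absolute log2 ratio between 2 libraries is at or above the value on the horizontal axis, for the day-5 pair in red and for the 4 replicate pairs of another run in grey and blue. The replicate pairs are from day 6 or day 12, with or without FGF2. At the 4-fold threshold (dotted line) the day-5 pair stands at 24.1% and the replicate pairs at 0.0196% or less.

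The protein-coding genes with the highest ratios were of a few kinds. Proteins of the neuronal cytoskeleton were STMN2 (2.00 and 4019 CPM), STMN4 (0.249 and 423 CPM), MAP2 (2.15 and 1600.5 CPM), MAP6 (1.31 and 669 CPM) and NEFM (7.05 and 3194 CPM). Transcription factors included NEUROG2 itself, EBF1 (0.125 and 399 CPM), EBF2 (0.187 and 349.6 CPM), EBF3 (1.47 and 767 CPM), NHLH1 (1.78 and 856 CPM) and ISL1 (0.343 and 420.0 CPM). Others in the top 15 were SLC17A6 (0.0624 and 304 CPM), the vesicular glutamate transporter of subcortical and sensory neurons, the anchoring protein AKAP6 (0.624 and 535 CPM) and ISLR2 (2.28 and 918 CPM), a leucine-rich repeat protein of axons. SLC17A6 had 2 counts in the control library, so that its level was 4873-fold (95% counting interval 1349 to 40246) higher. In 22 higher genes the control library had no count at all, among them ST18, a zinc finger factor of differentiating neurons, at 137 CPM with doxycycline, and GRIA2, an AMPA receptor subunit, at 79.3 CPM. Against a floor of 3 counts in the control library these were at least 1461-fold and 848-fold higher.

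The protein-coding genes with the lowest ratios were led by TDGF1, a NODAL coreceptor of stem cells (679 and 2.08 CPM), 327-fold (95% counting interval 264 to 408) lower with doxycycline. SFRP2, a secreted WNT inhibitor, followed at 698 and 2.80 CPM. Of the lowest 15 genes 3 are on the list of epithelial genes, the cadherins CDH1 (341 and 1.28 CPM) and CDH3 (380.2 and 2.76 CPM) and the splicing factor ESRP1 (159 and 0.435 CPM). Also at this end were the vesicle traffic gene RAB17 (129 and 0.0967 CPM) and the sodium channel subunit SCNN1A (144 and 0.411 CPM). Others in the lowest 15 were POU5F1, the stem cell zinc finger ZSCAN10 (276 and 1.28 CPM), CYP2S1, IFITM1, MFGE8 and COL9A3.

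By absolute gain in CPM the order was different, because it favours abundant genes. TUBA1A, the main alpha tubulin of young neurons, gained most (104 and 7559 CPM), followed by the microtubule protein MAP1B (87.5 and 4748 CPM) and the actin gene ACTG1 (2226 and 6279.9 CPM), which was 2.82-fold higher and so not past 4-fold. STMN2, NEFM, TUBA1C, STMN1, NEFL, DCX and TUBB completed the 10 largest gains, all of them genes of tubulin, neurofilaments or their regulators. The 10 largest losses were all mitochondrially encoded RNA or its nuclear copies, led by MT-CO1 (27032 and 9438 CPM) and MT-ND4 (21859.7 and 5384 CPM).

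The gene lists described next hold 1235 genes in 40 lists, and each list is given by its members compared, the number of them higher and lower, and its median log2 ratio. The values to read them against are 12.6% higher, 11.5% lower and a median of 0.23 over all genes compared.

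**Figure D3:**
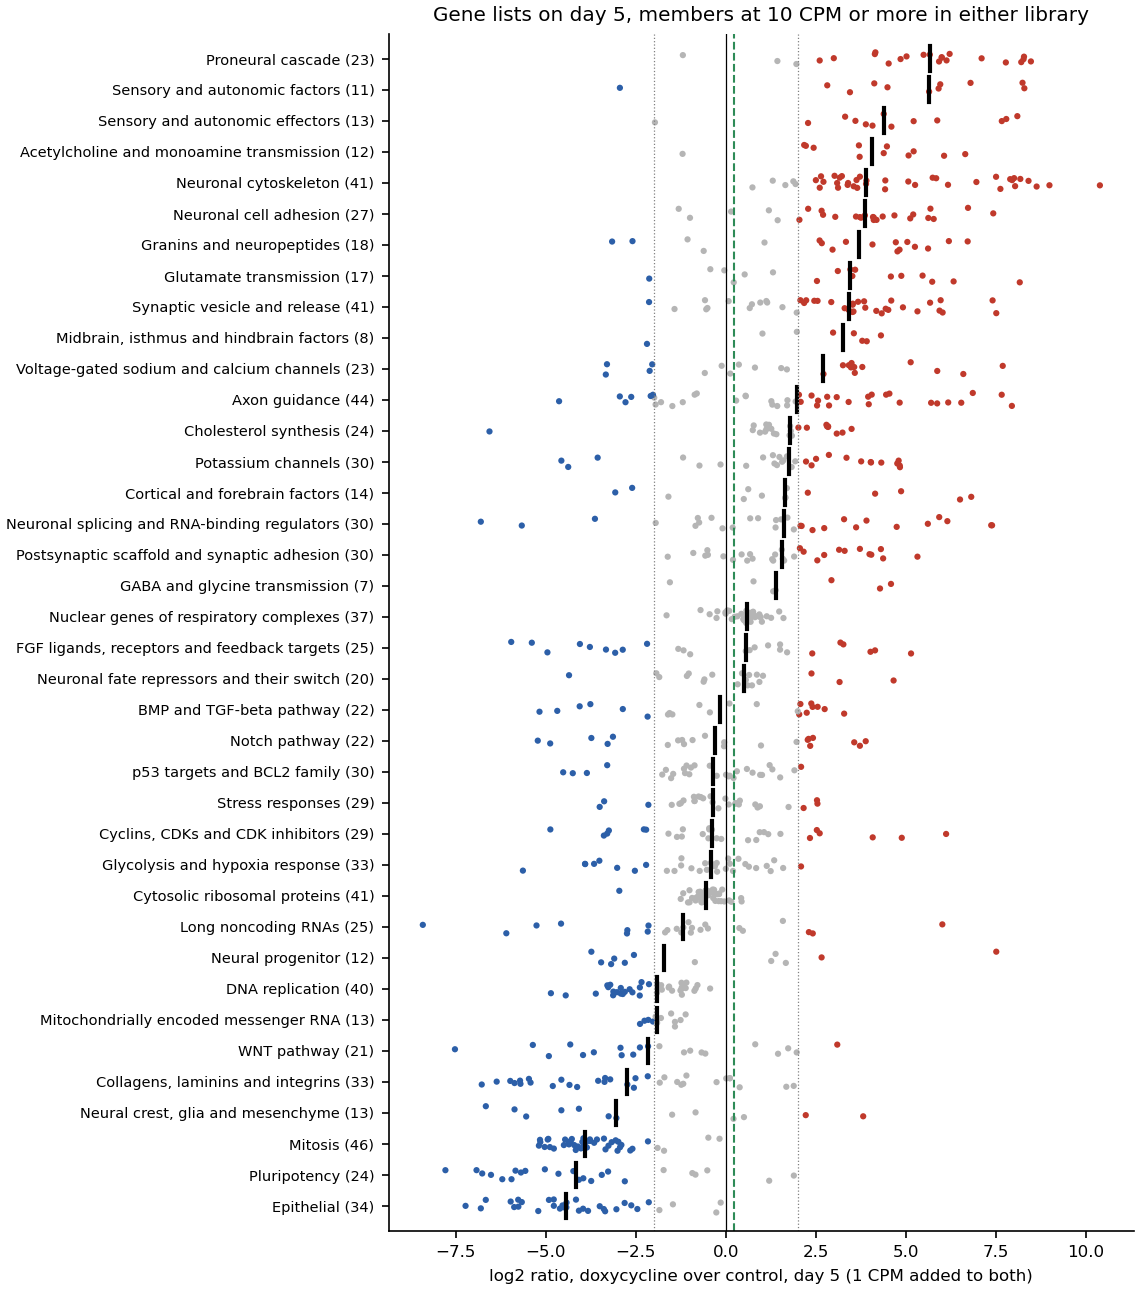
Log2 ratio of doxycycline over control on day 5 (horizontal axis) for the members of 38 gene lists at 10 CPM or more in either library (number in brackets), with red points at least 4-fold higher, blue points at least 4-fold lower and a black bar at each list's median. The dashed green line is the median of all genes compared (0.23) and the dotted lines mark 4-fold. The proneural cascade stands highest at 5.67 and the epithelial genes lowest at -4.43.

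Factors of the proneural cascade, the transcription factors that act with and after NEUROG2, were higher in 20 of 23 members compared, none was lower, and the median was 5.67. The members compared are 23 of 32 listed, and over all members with a count the median was 4.52. The 5 largest ratios were those of EBF1, EBF3, NHLH1, EBF2 and ONECUT3, with EBF3 at 1.47 and 767 CPM, NHLH1 at 1.78 and 856 CPM, NHLH2 at 9.82 and 689.7 CPM, ONECUT2 at 10.8 and 757 CPM and ONECUT3 at 0.655 and 362 CPM. Zinc finger factors that hold down non-neuronal genes were higher too, among them MYT1 (7.39 and 271 CPM), MYT1L (0.0312 and 71.3 CPM), INSM1 (1.59 and 156 CPM) and SCRT1 (1.37 and 106 CPM). The NEUROD factors, which follow NEUROG2 in the cascade, were at more modest levels, NEUROD4 at 0.0624 and 78.0 CPM, NEUROD2 at 0.0624 and 29.7 CPM and NEUROD1 at 0.125 and 24.9 CPM. NEUROD6, TBR1 and EOMES, which belong to cortical neurons or their progenitors, stayed at or below 0.387 CPM with doxycycline. Other proneural genes were near 0, with ATOH1 at 0 and NEUROG1 at 3.05 CPM. GADD45G, often placed downstream of NEUROG2, stood at 33.9 and 14.3 CPM.

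Notch signalling, by which neighbouring cells keep each other from becoming neurons, did not move as 1 block (7 higher and 5 lower of 22, median -0.31). The receptors compared were all lower, NOTCH1 at 244 and 17.4 CPM, NOTCH2 at 111 and 2.80 CPM and NOTCH3 at 385 and 9.36 CPM, and so were the effectors HES1 (12.3 and 0.363 CPM) and HEY2 (14.8 and 0.798 CPM). Of the ligands DLL3, which acts inside the cell that makes it, was higher (31.7 and 386 CPM), while DLL1 (27.2 and 11.6 CPM) and JAG1 (48.7 and 18.9 CPM) were not past 4-fold. HEY1, another effector (0.281 and 17.9 CPM), and NUMBL, an inhibitor of Notch (22.6 and 113 CPM), were higher. The receptor NOTCH4 stayed below the level compared (1.78 and 4.54 CPM). The nuclear partner RBPJ was level (195 and 188 CPM).

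REST, the repressor that silences neuronal genes outside the nervous system, stood at 65.4 CPM in the control and 2.25 CPM in the doxycycline library, 29.1-fold (95% counting interval 23.6 to 36.2) lower. It was the only 1 of 20 genes of this group to be lower. PTBP1, a splicing repressor of neuronal exons, was 3.83-fold lower (438 and 114 CPM), short of the threshold, while its neuronal counterpart PTBP2 was at 109 and 149 CPM. In the BAF chromatin complex neuronal precursors exchange some subunits for others. The neuronal subunit ACTL6B was higher (1.75 and 68.5 CPM), as were DPF1 (8.01 and 45.9 CPM) and DPF3 (0.436 and 11.8 CPM), but the progenitor subunits ACTL6A (41.4 and 52.3 CPM), PHF10 (63.5 and 41.7 CPM), DPF2 (62.8 and 92.9 CPM) and SS18 (66.9 and 111 CPM) were each within 2-fold. The neuronal subunit SS18L1 was at 104 and 67.4 CPM. The REST corepressors RCOR1 (64.6 and 30.05 CPM), RCOR2 (71.8 and 148 CPM) and KDM1A (215 and 412 CPM) were not past 4-fold.

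Factors of sensory and autonomic neurons were higher in 10 of 11 members compared and lower in 1, with a median of 5.65. More than this number, 13 of 24, stayed below 10 CPM in both libraries, and over all members with a count the median was 1.07. ISL1 (0.343 and 420.0 CPM) and POU4F1 (0.811 and 200.4 CPM), which sensory neurons share, were among the higher members. HAND2, GATA3, TFAP2B and RUNX1, which autonomic and sensory lineages also use, were each at or below 0.121 CPM with doxycycline. SIX4 was the member lower (39.2 and 4.23 CPM). Among effectors of such neurons, 12 of 13 compared were higher, among them the ATP receptor P2RX3 (1.03 and 555 CPM), the intermediate filament PRPH (0.281 and 282 CPM) and the sodium channel SCN9A (0.966 and 114 CPM). Of the PRPH exon bases 56.2% also lie in another gene, and the counting is not stated to use strand, so part of its count may belong to that gene. The GDNF family receptor subunits RET (39.8 and 404 CPM), GFRA1 (15.9 and 409 CPM) and GFRA2 (2.37 and 49.0 CPM) were higher, and the channels TRPV1, TRPA1 and TRPM8 of mature nociceptors were at or below 0.798 CPM with doxycycline. Over all effectors with a count the median was 2.29, against 4.39 over those compared. The touch channel PIEZO2 stood at 19.8 and 4.33 CPM.

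Regional factors of the brain were mixed. Of 14 cortical and forebrain factors compared 5 were higher and 2 lower, with a median of 1.65. POU3F2, a POU factor of neurons in many regions, led (0.156 and 129 CPM), followed by LHX9 (0 and 89.9 CPM), FOXP2 (0.0624 and 30.05 CPM) and FEZF1 (0.405 and 23.9 CPM). The cortical factor EMX1 was at 0.218 and NR2F1 at 0.0725 CPM with doxycycline, and BCL11A (25.7 and 2.18 CPM) and BCL11B (11.7 and 1.09 CPM), which specify cortical projection neurons, were lower. Of 8 midbrain, isthmus and hindbrain factors compared 5 were higher, among them IRX3 (3.15 and 47.8 CPM), IRX5 (1.902 and 42.8 CPM), LMX1B (0.592 and 21.0 CPM) and PAX5 (0.530 and 11.1 CPM), while IRX2 was lower (116 and 24.7 CPM). The other 20 of 28 did not reach 10 CPM, with EN1, LMX1A, WNT1 and HOXB4 at 0 in both libraries, and over all members with a count the median was 0.37.

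The neuronal cytoskeleton was the list with the most members higher, 36 of 41, none lower, with a median of 3.90. All 41 listed genes were compared. Levels of different genes are compared per kilobase of exon, as RPKM. On that scale TUBA1A (30.4 and 2209.5 RPKM), TUBB2A (203 and 1764) and STMN2 (0.845 and 1702) were the most abundant members of the list with doxycycline. Tubulin genes resemble each other closely, so reads may be split between them, and levels of some differed widely between runs. TUBB2A was at 3047 CPM here and at 287 and 332 CPM in the day-6 doxycycline controls of the other run, and TUBA1C at 3331 against 247 and 267 CPM. TUBA1A, at 7559 against 7638 and 8264 CPM, did not differ in this way, and the values of TUBB2A and TUBA1C are uncertain. The tubulins TUBA1A and TUBB2A were already present in the control library, whereas STMN2 was not. Microtubule-associated proteins of axons and dendrites stood far apart in the libraries, with MAPT at 2.68 and 727 CPM, DCX at 9.82 and 2838 CPM and MAP1A at 2.77 and 686 CPM. The growth cone protein GAP43 (6.55 and 1942 CPM) and the neurofilament subunits NEFL (10.5 and 2852 CPM), NEFM and INA (20.8 and 2717 CPM) were higher, but NEFH, the subunit of mature axons, was at 5.02 and 21.1 CPM. Exons of other genes overlap 38.9% of the NEFM and 35.8% of the TUBB3 exon bases. The transport motors KIF5C (106 and 2291 CPM) and KIF5A (46.4 and 704 CPM) were higher, and KIF1A (537 and 1328 CPM) and the ubiquitous KIF5B (125 and 210.3 CPM) were not.

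Adhesion molecules of neurons were higher in 22 of 27 compared, none lower, with a median of 3.86. CNTN2, a contactin of growing axons, went furthest (5.46 and 1111 CPM), and NCAM1 (8.98 and 1056 CPM), L1CAM (68.0 and 1190.3 CPM) and NFASC (33.7 and 632 CPM) were higher too. The cadherins crossed over. CDH2, the neural cadherin, was higher (49.0 and 316 CPM), where CDH1, the epithelial one, was 266-fold (95% counting interval 203 to 355) lower. Guidance genes were higher in 22 and lower in 6 of 44 compared (median 1.99). Receptors that axons use to read guidance cues, such as UNC5C (0.436 and 290.2 CPM), ROBO2 (4.77 and 536 CPM), DCC (0.281 and 73.9 CPM) and PLXNA4 (0.998 and 231 CPM), were higher, along with the secreted cues SEMA3C (1.68 and 661 CPM) and SLIT3 (2.99 and 113 CPM). Members that were lower included EPHA2, an ephrin receptor of stem cells and epithelia (90.2 and 2.68 CPM), SEMA6A (1076 and 139 CPM), UNC5B (60.2 and 8.92 CPM) and PLXND1 (107 and 14.6 CPM). Family members went in opposite directions, UNC5C against UNC5B and SEMA6D (4.52 and 399 CPM) against SEMA6A.

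Genes of the synaptic vesicle and its release were higher in 28 of 41 compared and lower in 1, with a median of 3.41. SYT4 (3.15 and 757 CPM) and SYT11 (19.2 and 1029 CPM), synaptotagmins that do not trigger fast release, CPLX2, a regulator of vesicle fusion (1.03 and 344 CPM), SNAP25, a SNARE protein (0.624 and 105 CPM), and CADPS, a priming factor (6.58 and 473 CPM), had large differences. The vesicle membrane protein SYP was at 12.5 and 409 CPM. Several release genes were already well above 10 CPM without doxycycline and were not past 4-fold, for example UNC13A (102 and 227 CPM), DNM1 (122 and 203 CPM) and RAB3B (163 and 112 CPM). Postsynaptic scaffold and synaptic adhesion genes differed less, with 12 of 30 higher, none lower and a median of 1.57. CAMK2B, a synaptic kinase (0.436 and 56.5 CPM), was higher, while the main scaffold DLG4 was at 81.6 and 201 CPM and HOMER1 at 31.3 and 36.1 CPM. The difference between both medians was not tested.

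Transmitter genes were of more than 1 kind. Glutamate genes were higher in 11 and lower in 1 of 17 compared (median 3.46). The vesicular transporters SLC17A6 (0.0624 and 304 CPM) and SLC17A7 (13.9 and 169 CPM) were higher, at 62.0 and 28.2 RPKM with doxycycline. Another, SLC17A8, stayed below the level compared. AMPA and kainate receptor subunits such as GRIA2, GRIA4 (7.73 and 95.1 CPM) and GRIK2 (1.43 and 128 CPM) were higher, whereas the NMDA receptor subunits GRIN2A and GRIN2D were not and the others stayed below the level compared, with GRIN1 at 6.45 and 8.58 CPM, GRIN2A at 10.7 and 7.66 CPM, GRIN2B at 4.55 and 0.411 CPM GRIN2D at 54.0 and 63.1 CPM and GRIN3A at 0.779 and 6.43 CPM. Cholinergic genes stood beside them. 11 of 12 acetylcholine and monoamine genes compared were higher, with the choline transporter SLC5A7 at 0.281 and 128 CPM, the vesicular transporter SLC18A3 at 0.125 and 74.2 CPM, the synthetic enzyme CHAT at 0.0312 and 12.4 CPM and the ganglionic receptor subunits CHRNA3 (6.77 and 288 CPM) and CHRNB4 (2.46 and 71.4 CPM). Per length SLC5A7 and SLC18A3 were at 24.7 and 30.7 RPKM, near SLC17A7, and CHAT was at 3.30 RPKM. These levels were not shared by the day-6 doxycycline controls of the other run. There SLC5A7 was at 0.726 and 0.858 CPM and SLC18A3 at 9.96 and 13.8 CPM. SLC17A6 was at 83.5 and 97.1 CPM and SLC17A7 at 513 and 516 CPM in the same libraries. The difference between the runs was not tested. Enzymes and transporters of noradrenaline, dopamine and serotonin were low, TH at 0.242, DBH at 0.701 and TPH2 at 0.0483 CPM. Genes that define inhibitory neurons were near 0, since GAD1 was at 0.290, GAD2 at 0.169 and SLC32A1 at 0.0725 CPM with doxycycline and DLX1, DLX2, DLX5 and DLX6 at or below 0.0242. Of the 7 GABA and glycine genes compared 3 were higher and none lower (median 1.39), and those named next are receptors, with GABBR2 at 4.18 and 99.8 CPM and GLRA2 at 0.187 and 27.6 CPM. Over all members with a count, also those below the level compared, the medians were 0.84 for glutamate and 1.52 for acetylcholine and monoamine genes. Whether these transmitter genes are made by the same cells cannot be told from bulk RNA.

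Voltage-gated channels split by subunit. Of 23 sodium and calcium channel genes compared 12 were higher and 4 lower (median 2.71). SCN3A, the sodium channel of immature neurons, had 1 count without doxycycline and stood at 0.0312 and 212 CPM, and SCN3B (1.12 and 204 CPM) and SCN2A (1.96 and 27.3 CPM) were higher, while SCN8A, the channel of mature axons, was at 56.3 and 72.7 CPM. The low-threshold calcium channel CACNA1I was lower (15.2 and 0.604 CPM). Potassium channel genes were higher in 13 and lower in 3 of 30 (median 1.76). KCNA2 (0.811 and 50.6 CPM), KCNC1 (0.468 and 39.9 CPM) and KCNQ3 (3.65 and 91.8 CPM) were higher, and the 3 lower members, KCNK1 (24.97 and 0.0967 CPM), KCNK5 (66.4 and 2.25 CPM) and KCNK12 (21.9 and 0.943 CPM), are background channels of the same family as KCNK3, which was higher (0.218 and 32.1 CPM). Granins and neuropeptide genes were higher in 13 and lower in 2 of 18 (median 3.71). CHGA, the main protein of dense-core vesicles, was at 11.3 and 1289 CPM, with the processing enzymes CPE (30.6 and 834 CPM) and PCSK1 (2.81 and 186 CPM). The peptides ADCYAP1 (0 and 72.3 CPM), SST (0.281 and 33.9 CPM) and TAC1 (1.12 and 34.8 CPM) were higher, and GAL was lower (79.3 and 8.001 CPM).

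RNA-binding proteins that set neuronal splicing were higher in 13 and lower in 3 of 30 (median 1.62). CELF3 (1.78 and 467 CPM), ELAVL3 (11.1 and 737 CPM), ELAVL4 (1.15 and 356 CPM), SRRM4 (2.93 and 279 CPM) and NOVA1 (17.2 and 272 CPM) were higher. The lower members were the epithelial splicing factors ESRP1 and ESRP2 (60.8 and 0.218 CPM), and MBNL3 (21.0 and 0.774 CPM). RBFOX3, whose protein is the mature neuron marker NeuN, was at 13.4 and 40.7 CPM.

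The same list members can be read in the day-11 pair, which shares no library with the day-5 pair. Medians of the day-5 members of the proneural cascade were 5.67 on day 5 and 4.81 on day 11, of the neuronal cytoskeleton 3.90 and 4.14, and of pluripotency genes -4.16 and -2.77. For these lists the direction was shared by both days. The cortical and forebrain factors stood at 1.65 on day 5 and 0.01 on day 11, and the GABA and glycine genes at 1.39 and 3.11. Differences between the days were not tested.

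**Figure D4:**
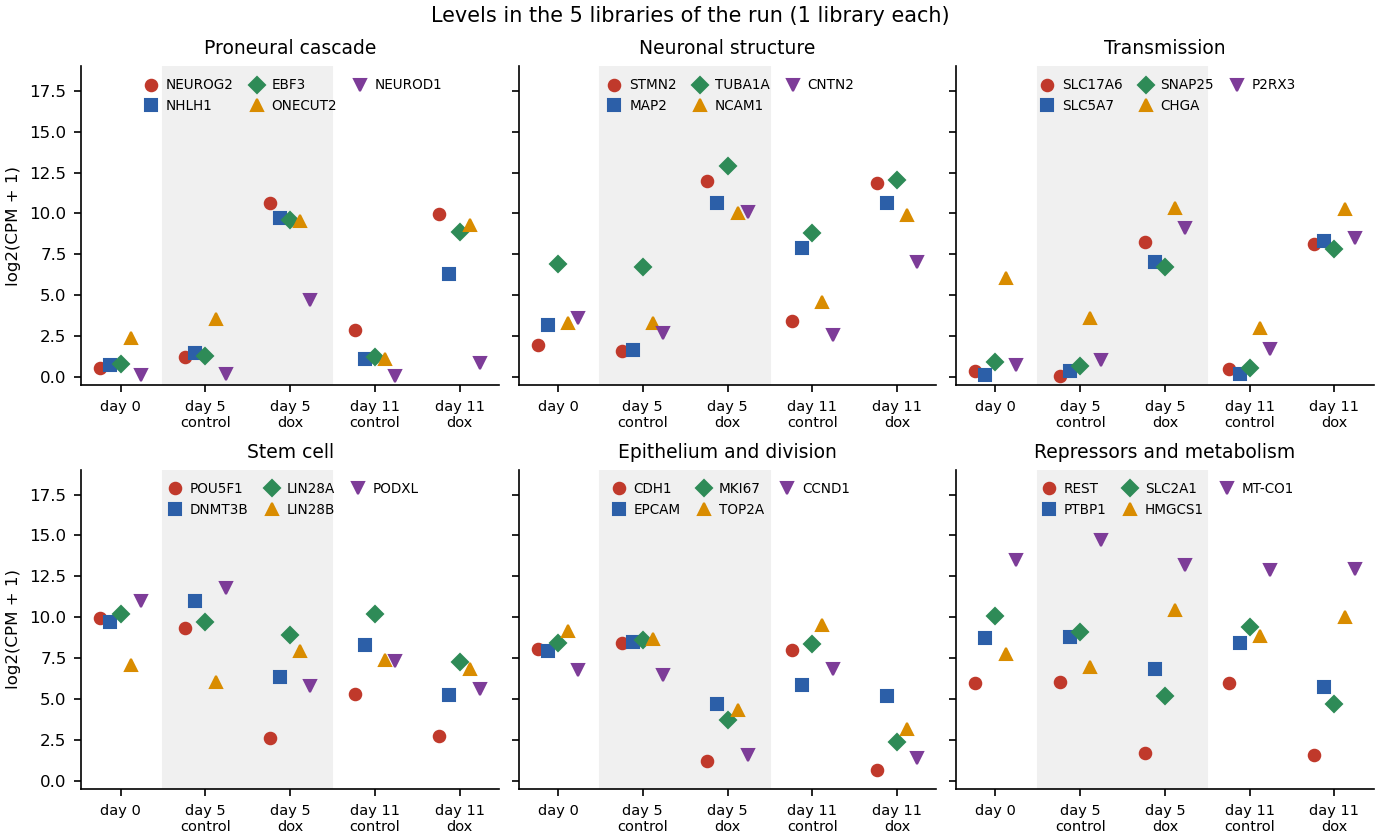
Level of 30 genes as log2(CPM + 1) in the 5 libraries of the run, 1 library each, with the day-5 pair on a grey ground and small sideways shifts so that points do not hide each other. POU5F1, CDH1, REST and SLC2A1 drop between the day-5 control and the day-5 doxycycline library, while LIN28A stays within 2-fold and MT-CO1 is highest in the day-5 control.

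Pluripotency genes were lower in 18 of 24 members compared, none was higher, and the median was -4.16. TDGF1, ZSCAN10, POU5F1 and L1TD1, an RNA-binding protein of stem cells (570.2 and 5.22 CPM), had the largest differences, and NANOG was at 35.5 and 0.121 CPM. By level, PODXL, a cell surface sialomucin, went from 505 to 8.02 RPKM and DNMT3B, a DNA methyltransferase, from 431 to 17.0. Several members were not lower, LIN28A (849 and 473 CPM), PRDM14 (39.1 and 27.1 CPM), ZFP42 (84.1 and 43.7 CPM) and NR6A1 (119 and 276 CPM), and LIN28B was at 64.1 and 240.2 CPM. JARID2, a partner of Polycomb, was 3.33-fold lower (418 and 126 CPM). SOX2, a factor of both stem cells and neural progenitors, was 7.16-fold (95% counting interval 6.76 to 7.57) lower (249 and 34.7 CPM).

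Neural progenitor genes did not share a direction (2 higher and 6 lower of 12, median -1.70). PAX6 and SOX1, which define neuroepithelium, stayed below the level compared in both libraries, PAX6 at 1.28 and 4.11 CPM and SOX1 at 0.281 and 0.0967 CPM. The intermediate filaments NES (405 and 972 CPM) and VIM (52.9 and 170.4 CPM) were more abundant with doxycycline but not past 4-fold. PROM1 (84.9 and 6.79 CPM), GLI3 (20.0 and 1.45 CPM) and SOX3 (10.7 and 0.991 CPM) were lower, and DACH1 was the largest exception (0.811 and 329.6 CPM). Markers of neural crest, glia and mesenchyme summed to 1627 CPM in the control and 216 CPM in the doxycycline library, most of it from COL1A1 (726 and 11.5 CPM), THY1 (279 and 98.6 CPM) and COL1A2 (173 and 6.33 CPM). OLIG2, an oligodendrocyte and motor progenitor factor, was higher (0.281 and 17.0 CPM), with SOX10 at 0 in both. The 22 markers of mesendoderm and trophoblast summed to 50.8 and 58.8 CPM, of which CXCR4, a chemokine receptor also made by migrating neurons, accounts for 0.935 and 46.2.

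Epithelial genes formed the lowest list, with 30 of 34 members compared lower, none higher and a median of -4.43. Every one of the 34 had a ratio below 0. Claudins of tight junctions such as CLDN6 (639.9 and 9.91 CPM) and CLDN7 (75.5 and 0.218 CPM), the keratins KRT8 (179 and 10.5 CPM), KRT18 (103 and 0.919 CPM) and KRT19 (69.9 and 0.919 CPM), the adhesion molecule EPCAM (363 and 24.7 CPM) and the factor GRHL2 that maintains epithelia (29.4 and 0.411 CPM) were lower. TJP1, a junction scaffold that other cell types share, was level (122 and 102 CPM), while its relative TJP3 was lower (32.1 and 0.483 CPM).

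Genes of mitosis were lower in 42 of 46 members, all 46 listed being compared, with a median of -3.92. Kinases and regulators of the spindle stood lowest, UBE2C (187 and 4.16 CPM), BUB1B (161 and 3.53 CPM), BUB1 (190.0 and 4.38 CPM) and AURKB (118 and 2.63 CPM), and the proliferation marker MKI67 was at 391.6 and 11.9 CPM. The 4 members not past 4-fold were CENPI (14.5 and 12.7 CPM), BUB3 (158 and 112 CPM), ANLN (129 and 38.7 CPM) and INCENP (68.9 and 17.8 CPM). DNA replication genes were lower in 19 of 40 and none was higher, with a median of -1.91, and each of the 40 had a ratio below 0. TK1 (50.4 and 0.774 CPM) and the licensing factor CDT1 (63.4 and 1.96 CPM) were lowest. The clamp PCNA (73.9 and 33.6 CPM), which DNA repair also uses, and the primase PRIM1 (20.0 and 8.03 CPM) were not past 4-fold.

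The promoters of these genes are shown because members that differ together can be looked at for shared sequence. RefSeq promoters on GRCh38.p14, 250 bases before to 50 after a gene's start (the first listed start where a gene has several), were matched for 36 of the 42 mitosis genes and 16 of the 19 replication genes that were lower. CCAAT, the motif of the factor NF-Y, was found on either strand in 29 of 36 mitosis promoters (80.6%), against 35.7% of all 27305 promoters and 37.6% of the 7126 of genes that were neither higher nor lower. TTTGAA, the element through which the DREAM complex holds down mitosis genes in resting cells, was found in 24 of 36 (66.7%), against 15.4% of all and 8.57% of the genes in neither group. In the replication genes CCAAT was in 9 of 16 promoters (56.2%) and TTTGAA in 0 of 16. TTTGGCGC or TTTCGCGC, forms of the E2F motif, were in 6 of 16 (37.5%), against 1.18% of all and 2.19% of the genes in neither group. The E2F motif was in 2 of 36 mitosis promoters (5.56%). A match is a run of letters in the window and no proof of binding. The 42 lower mitosis genes are nearly all of the 46 listed, so their shares describe the list and not the difference on day 5. Whether these motifs bear on the lower levels was not tested. Among the mitosis genes with most matches are HMMR, a spindle protein, with 5 of CCAAT and 2 of TTTGAA, and TOP2A, the topoisomerase that untangles chromosomes, with 4 and 2. In both sequences capitals mark CCAAT and TTTGAA on either strand (ATTGG and TTCAAA on the strand shown), and adjoining or overlapping matches run together.
HMMR (chr5:163460382-163460681, plus strand): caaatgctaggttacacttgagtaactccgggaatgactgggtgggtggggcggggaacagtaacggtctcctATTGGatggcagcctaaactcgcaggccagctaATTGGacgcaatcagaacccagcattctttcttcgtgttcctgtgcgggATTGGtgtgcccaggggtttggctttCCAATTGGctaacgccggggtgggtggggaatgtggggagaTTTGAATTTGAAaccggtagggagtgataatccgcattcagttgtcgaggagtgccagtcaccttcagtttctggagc
TOP2A (chr17:40417847-40418146, minus strand): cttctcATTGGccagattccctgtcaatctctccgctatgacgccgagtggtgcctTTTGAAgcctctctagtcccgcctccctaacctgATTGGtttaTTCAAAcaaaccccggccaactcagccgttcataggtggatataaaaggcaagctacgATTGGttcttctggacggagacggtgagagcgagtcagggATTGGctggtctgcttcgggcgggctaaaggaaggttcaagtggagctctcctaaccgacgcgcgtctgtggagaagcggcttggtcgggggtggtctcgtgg
HMMR was at 58.9 and 7.03 CPM and TOP2A at 407 and 18.95 CPM.

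Genes that move cells out of the cycle did not all go 1 way. Of 29 cyclins, CDKs and their inhibitors compared 6 were higher and 6 lower (median -0.38). The inhibitors CDKN1C (31.2 and 196 CPM) and CDKN2D (2.03 and 88.6 CPM) and the pocket protein RB1 (19.9 and 119.6 CPM) were higher, CDKN1B was at 38.3 and 88.1 CPM, and CDKN1A, the p53 target, was lower (173 and 16.7 CPM). CCND1 (87.7 and 2.03 CPM) and CCND2 (262 and 26.7 CPM) were lower, while CCND3 (27.1 and 24.8 CPM), CDK4 (48.7 and 40.7 CPM) and CDK6 (38.8 and 82.1 CPM) were not past 4-fold. CDK5, the kinase of post-mitotic neurons (7.70 and 43.0 CPM), and its activators CDK5R1 (11.9 and 217 CPM) and CDK5R2 (0.405 and 96.7 CPM) were higher. MYC was at 23.9 and 43.9 CPM and MYCN at 52.4 and 37.9 CPM. Of p53 targets and BCL2 family genes 1 of 30 was higher and 4 were lower, PMAIP1 (115 and 4.06 CPM), BCL2L12 (49.7 and 1.67 CPM), BIRC5 (106 and 6.36 CPM) and CDKN1A.

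Growth factor signalling differed by component. All 4 main FGF receptors were lower, FGFR1 (1047 and 75.6 CPM), FGFR2 (199 and 11.0 CPM), FGFR3 (169 and 1.74 CPM) and FGFR4 (112 and 1.69 CPM), and so was the ligand FGF2 (338 and 9.94 CPM). Other ligands were higher, FGF9 (0.717 and 29.4 CPM) and FGF18 (1.12 and 33.4 CPM). Targets and feedback inhibitors of the pathway went both ways, with DUSP4 (8.29 and 328 CPM) and ETV5 (28.4 and 154 CPM) higher, ETV4 (102 and 13.2 CPM), SPRY1 (21.7 and 3.99 CPM) and EGR1 (35.5 and 2.63 CPM) lower, and DUSP6 at 70.3 and 104 CPM. In all 6 of 25 compared were higher and 9 lower. The list's median of 0.56 turned to -0.38 under library totals, so no direction is given for it.

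WNT pathway genes were lower in 11 and higher in 1 of 21 compared (median -2.16). The secreted inhibitors SFRP2 and SFRP1 (334 and 15.8 CPM), the stem cell repressor TCF7L1 (127 and 2.13 CPM) and the receptors FZD5 (96.2 and 2.22 CPM) and FZD7 (779.7 and 104 CPM) were lower, and the receptor FZD1 was higher (4.30 and 44.4 CPM). The feedback gene AXIN2 was at 22.5 and 14.9 CPM. BMP and TGF-beta genes were higher in 8 and lower in 6 of 22 (median -0.17). Of the ID proteins, which bind and block helix-loop-helix factors, ID1 (98.2 and 4.96 CPM) and ID3 (52.5 and 0.483 CPM) were lower, ID2 was at 23.8 and 17.2 CPM and ID4 was higher (10.57 and 76.6 CPM). The ligands BMP7 (40.1 and 0.604 CPM) and BMP4 (15.6 and 1.28 CPM) and the activin inhibitor FST (28.3 and 1.16 CPM) were lower, while receptor genes such as BMPR2 (36.7 and 199.7 CPM) and TGFBR1 (73.9 and 387 CPM) were higher.

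Collagens, laminins and integrins were lower in 20 of 33 compared and none was higher (median -2.73). Basement membrane chains such as COL4A5 (197 and 3.48 CPM), COL18A1 (549 and 7.69 CPM) and LAMB2 (205 and 2.92 CPM), the cartilage collagen COL9A3 (528 and 3.82 CPM) and the vitronectin receptor chain ITGB5 (272 and 2.32 CPM) were among those with the largest differences. ITGB1, the common beta chain, was level (311 and 337 CPM), and so was COL6A1 (318 and 416 CPM), while its partner COL6A2 was lower (245 and 7.81 CPM).

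Of 33 genes of glycolysis and the low-oxygen response compared 8 were lower and 1 higher (median -0.41). The glucose transporters SLC2A1 (549.7 and 35.8 CPM) and SLC2A3 (675 and 145 CPM), hexokinase HK2 (74.1 and 4.96 CPM) and the oxygen-responsive genes ADM (69.1 and 0.411 CPM), EGLN3 (21.4 and 0.967 CPM) and VEGFA (78.5 and 12.8 CPM) were lower. GAPDH (706 and 901 CPM), PGK1 (469 and 352 CPM) and GPI (194 and 204 CPM), all of glycolysis, were each within 2-fold. The glycolytic enzymes ENO1 (1101 and 354 CPM), PFKP (146 and 53.9 CPM), PFKL (130.4 and 54.6 CPM) and LDHA (287 and 122 CPM) were below the control by more than 2-fold but not past 4-fold, and hexokinase HK1 was at 203 and 448 CPM. PFKFB3, which makes an activator of glycolysis, was the member higher (31.3 and 137 CPM).

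Cholesterol synthesis genes were above the control in 23 of 24, 9 of them past 4-fold, with a median of 1.78. HMGCS1 (121 and 1377 CPM), which makes the pathway's precursor, LSS (85.1 and 813 CPM) and IDI1 (44.8 and 327 CPM) were higher, and SREBF2, the factor that controls the pathway, was at 430.1 and 989 CPM.

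Mitochondrially encoded messenger RNAs were all less abundant with doxycycline, with ratios from -2.38 (MT-ATP8) to -1.12 (MT-CYB) and a median of -1.91, 4 of 13 past 4-fold. The control library is the 1 that stands apart here. RNA of the mitochondrial chromosome took 15.03% of its counts, against 7.17% on day 0, 4.29% with doxycycline on day 5 and 4.40% and 5.12% on day 11, and the list's median was 1.22 above day 0 in the control. The nuclear pseudogene MTCO1P12 is a near copy of MT-CO1 and had 810361 counts in the control library against 867058 for MT-CO1, so the split between them is uncertain. Nuclear genes of the respiratory complexes had a median of 0.59, with none of 37 past 4-fold either way. Cytosolic ribosomal protein genes had a median of -0.56, and 1 of 41 was lower, the paralog RPL22L1 (64.9 and 7.49 CPM). Stress response genes had a median of -0.37, with 3 of 29 compared higher and 3 lower. These counts are near the shares over all genes compared, 12.6% higher and 11.5% lower. The higher members were TRIB3 (6.67 and 43.8 CPM), HERPUD1 (11.7 and 72.7 CPM) and DNAJB9 (14.6 and 68.6 CPM). The lower members were PHGDH of serine synthesis (430.5 and 37.1 CPM), HSPB1 (47.6 and 3.67 CPM) and PDIA4 (413 and 92.4 CPM).

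Among long noncoding RNAs 3 of 25 were higher and 8 lower (median -1.18). ESRG, a transcript of stem cells that arose from an endogenous retrovirus, was the lowest gene of all compared (1297 and 2.80 CPM), 462-fold (95% counting interval 385 to 559.7) lower. The host genes of stem cell and neuronal microRNAs went opposite ways, with MIR302CHG, host of the miR-302 cluster, at 47.4 and 0.266 CPM and MIR124-2HG, a host of miR-124, at 1.34 and 150.3 CPM. MIR17HG, host of a growth-promoting cluster, was lower (43.6 and 5.66 CPM). MIAT, a nuclear RNA of neurons, was higher (211 and 1133 CPM), and MALAT1 was at 590.1 and 397 CPM. The mature microRNAs were not measured.

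The higher genes had long spans. Over protein-coding genes the median distance from first to last base was 64727 bases for the 1495 higher genes with an annotation, 31687 bases for the 1320 lower genes and 34558 bases for the 8520 in neither group. Of genes up to 10 kb 11.2% were higher, of genes of 100 to 300 kb 19.4%, and of the 532 genes over 300 kb 42.5%, while 12.7%, 10.3% and 7.89% were lower. Among the genes over 300 kb that are on none of the 40 lists, 37.4% of 438 were higher, against 9.55% of 1675 such genes up to 10 kb. Exon length differed less, with medians of 6180 bases (higher), 4880 bases (lower) and 5434.5 bases (neither). Median transcript GC was 47.9% for higher genes, 51.9% for lower genes and 47.6% for the others. AKAP6, FOXP2 and CNTN1 are among the long genes that were higher.

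**Figure D5:**
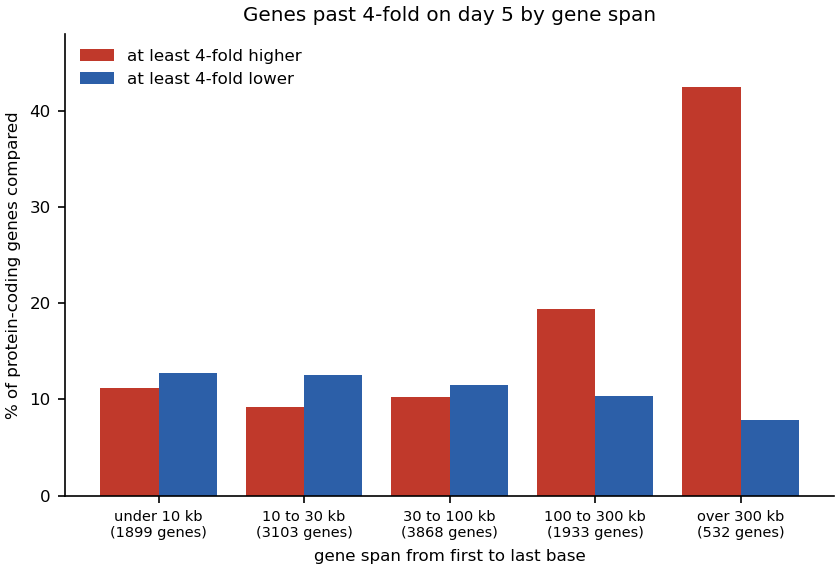
Share of protein-coding genes compared (vertical axis, in %) that were at least 4-fold higher (red) or lower (blue) with doxycycline on day 5, by the span of the gene from first to last base. The share higher is 11.2% for genes up to 10 kb and 42.5% for genes over 300 kb, and the share lower goes from 12.7% to 7.89%.

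By annotated type, 1497 of 11342 protein-coding genes were higher (13.2%) and 1322 lower (11.7%). Of 166 long intergenic noncoding RNAs 26 were higher (15.7%) and 43 lower (25.9%). Processed pseudogenes, whose reads may come from their parent genes, were higher in 56 and lower in 35 of 927.

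Sequences that proneural factors bind could be shared by genes that were higher together, which is why promoters of such genes are shown. E-boxes in the promoters of higher genes could not be compared, because RefSeq promoters matched only 1171 of 1497 higher protein-coding genes (78.2%) and 1001 of 1322 lower ones (75.7%), under the 80% set for such a check. CAGATG, an E-box form that proneural factors are known to bind, was in 14.8% of all promoters, and 1.67% of all had 2 or more matches. Of the higher genes 3 are shown as examples only, picked by most matches and then by ratio, with CAGATG on either strand in capitals (CATCTG on the strand shown), and each has 2. They are TAGLN3, a neuronal actin-binding protein (2.34 and 796 CPM), AMER2, a WNT regulator (0.187 and 66.1 CPM), and SPOCK2, a secreted proteoglycan of the brain (6.27 and 252 CPM).
TAGLN3 (chr3:111998672-111998971, plus strand): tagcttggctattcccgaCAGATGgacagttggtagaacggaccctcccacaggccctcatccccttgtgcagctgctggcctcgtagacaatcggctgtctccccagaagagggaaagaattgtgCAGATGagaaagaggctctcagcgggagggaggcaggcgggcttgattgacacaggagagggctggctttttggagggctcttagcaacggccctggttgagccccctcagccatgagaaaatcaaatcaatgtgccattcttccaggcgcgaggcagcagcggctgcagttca
AMER2 (chr13:25172239-25172538, minus strand): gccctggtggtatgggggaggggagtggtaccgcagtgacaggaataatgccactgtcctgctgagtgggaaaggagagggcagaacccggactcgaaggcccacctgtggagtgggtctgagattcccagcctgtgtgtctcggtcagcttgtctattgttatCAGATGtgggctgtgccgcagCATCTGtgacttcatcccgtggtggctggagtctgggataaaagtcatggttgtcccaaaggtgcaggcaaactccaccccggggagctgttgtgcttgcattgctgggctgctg
SPOCK2 (chr10:72088983-72089282, minus strand): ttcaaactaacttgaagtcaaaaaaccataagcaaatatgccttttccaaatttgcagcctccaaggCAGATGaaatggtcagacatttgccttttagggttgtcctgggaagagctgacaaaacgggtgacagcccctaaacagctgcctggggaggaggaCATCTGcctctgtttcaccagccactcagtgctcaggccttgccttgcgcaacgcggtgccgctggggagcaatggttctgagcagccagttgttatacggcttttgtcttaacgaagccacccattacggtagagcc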

How the data were processed

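Total RNA of 1 well per library was sequenced as single-end reads, and the labels' protocols name a TruSeq RNA v2 kit. Per the submitters' processing notes Subread, featureCounts 1.5.0, limma and DESeq2 were used with GRCh38. Which step each tool made, the annotation release and any use of strand are not given in the sources used here. The values used are raw counts per gene as deposited by the authors. A second table deposited by the authors holds normalized signal values. It equals the counts times 1 of 6 factors (0.839 to 1.19) that repeat every 6 rows, not 1 per library, so it was used only as an alternative, scaled to its own column totals. Sample columns of no use here (16) were left out.

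Counts of the 5 libraries of the run (28443657 to 47159475 counts) were scaled by TMM in edgeR 4.0.16 under R 4.3.3. Ratios were taken as log2((CPM + 1)/(CPM + 1)) in Python 3.11.15 with pandas 2.3.3, numpy 2.4.6, SciPy 1.17.1 and matplotlib 3.10.9. With 1 library a side no test was made and no p-value is given. The steps were tested on simulated data with known folds. Levels per kilobase of exon (RPKM) use the union of each gene's exons in GENCODE on GRCh38. A count of 0 was set to a floor of 3 counts for a bound.

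The comparison, the gene lists and the thresholds were chosen with earlier results of these data known, so they are no independent support. Genes named by rule were the markers, the 15 highest and 15 lowest protein-coding ratios, the 10 largest gains and losses in CPM, in each list the 4 largest absolute ratios and the 2 highest levels per length not among them, and genes past 4-fold in opposite directions on day 5 and day 11. Other list members were named after their values were seen, and some genes that the rule names are not reported here. Alternatives covered scaling (library totals, DESeq2 1.42.0 size factors, the deposited normalized values), the added CPM, the level filter, overlapping genes and the fold.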

Additional observations from a re-analysis of the deposited data

Results flagged for a closer look

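Between day 5 and day 11, 17 genes were past 4-fold in opposite directions, which flagged them, and the difference between the days was not tested because each group has 1 library. For 9 of them (HAPLN1, ZFHX4, MFNG, PAX3, LHX5, PKDCC, TCF12, FAAH and CHD5) the day-5 ratio was no longer past 4-fold with 5 CPM added, and of these PAX3, LHX5, PKDCC and TCF12 also missed it by library totals. LHX5 and TCF12 missed it with DESeq2 size factors too, and LHX5 with the deposited normalized values. The values below are log2 ratios of doxycycline over control, first on day 5 and then on day 11.

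In 13 of them the level was above the control on day 5 and below it on day 11, namely FEZF1-AS1 (4.32 and -2.31) and its neighbour FEZF1 (4.15 and -4.51), which may share reads since use of strand is not stated, BCHE (3.98 and -2.55), DLK1 (3.26 and -6.49), HAPLN1 (2.92 and -7.68), ZFHX4 (2.91 and -2.30) and PRTG (2.89 and -5.03). The others were EPHA4 (2.54 and -2.03), MFNG (2.30 and -3.18), PAX3 (2.22 and -4.35), LHX5 (2.09 and -3.40), PKDCC (2.06 and -3.06) and TCF12 (2.03 and -2.48). In several of them the day-11 control was by far the highest library. DLK1, a Delta-like protein of progenitors, was at 2.37 CPM in the day-5 control, 31.2 with doxycycline, 1307 in the day-11 control and 13.5 with doxycycline. PRTG, an early neuroepithelial surface protein, was at 6.95, 58.1, 1055 and 31.3 CPM in the same order.

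The other 4 went from below to above the control, namely FAAH (-2.10 and 2.14), CHD5 (-2.11 and 3.66), PLA2G16 (-2.53 and 2.31) and OGDHL (-2.81 and 2.26). CHD5, a chromatin remodeller of neurons, was at 12.8, 2.20, 1.72 and 33.4 CPM in that order.

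Medians of 4 lists also changed sign between the days. The list of neuronal fate repressors and their switch had 0.50 on day 5 and -0.38 on day 11, the FGF list 0.56 and -1.50, mitochondrially encoded messenger RNA -1.91 and 0.44, and stress responses -0.37 and 0.29.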

How the results depend on the processing

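No paired analysis was possible because each day-5 group has 1 library. The median log2 ratio of all genes compared was 0.23 by TMM, 0.0589 by library totals, 0.0536 with the deposited normalized values and -0.0193 with no level filter. By library totals 1411 genes were higher and 1565 lower, in place of 1625 and 1477. With 5 CPM added 1210 genes were higher and 957 lower. With a filter of 1 CPM 1813 were higher and 2010 lower, so that lower genes outnumbered higher ones, as by library totals. Among genes without overlapping exons 965 were higher and 869 lower, of 7131 compared. At a fold of 2 the counts were 3748 higher and 2719 lower, and at a fold of 8 they were 790 and 912. Of the 38 list medians 17 lay past 2 in either direction and 10 of these stayed past 2 under all 8 alternatives. The median log2 ratio of the list FGF ligands, receptors and feedback targets was 0.56 and changed sign by library totals (-0.375), with the deposited normalized values (-0.292), with a filter of 1 CPM (-1.02) and with no filter (-0.575). The median log2 ratio of the list Cyclins, CDKs and CDK inhibitors went from -0.38 to 0.733 among genes without overlapping exons. The cause was not tested. Of 217 genes named by rule and past 4-fold, 202 stayed so under every scaling and added CPM tried. Among the 15 that did not were DPF3, DPF1, ACHE, KCNH2, SLC1A3, HAPLN1, ZFHX4, MFNG, PAX3, LHX5, PKDCC, TCF12, FAAH and CHD5, and 13 of the 15 were lost with 5 CPM added. At 28443657 to 47159475 counts a library, counting error is small beside these ratios for all but genes with few counts, and the difference between wells was not measured.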

Other observations

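Groups of genes that were put together only after the values were seen are described here without any claim from their choice, with CPM of the control library first. Members that reached 10 CPM in only 1 library passed through the side where they are high. Over all genes compared 12.6% were higher and 11.5% lower. Genes of MHC class I and antigen presentation were lower in 8 of 11 compared and higher in 0 (median log2 ratio -3.42). HLA-C, a class I heavy chain, stood at 331 and 13.1 CPM, its light chain B2M at 120.0 and 10.3 CPM, and the peptide transporter TAP1 at 28.9 and 0.218 CPM. Class I genes are near copies of each other, so reads may be split between them. Interferon-induced genes were lower in 9 of 12 compared and higher in 0 (median -5.11), among them IFITM3 (276 and 2.15 CPM) and BST2 (67.9 and 1.06 CPM), while STAT2, a factor that carries the interferon signal, was within 2-fold (41.0 and 48.2 CPM).

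Homeodomain and related factors of the spinal cord and diencephalon were higher in 10 of 10 compared, out of 25 listed, the rest staying below 10 CPM. The 10 compared were at or below 2.65 CPM in the control. Each thus passed the level only through the doxycycline library, so this count is no result about the group. NKX6-1, a factor of ventral spinal cord and hindbrain, stood at 0.187 and 258 CPM, and SIM1, a factor of hypothalamic and spinal neurons, at 0.187 and 225 CPM. The repressors of epithelial genes ZEB1 (0.436 and 135 CPM) and ZEB2 (0.218 and 107 CPM) were higher, and SNAI1 stayed below the level compared (9.17 and 1.04 CPM). Clustered protocadherins, which give neurons a surface identity, were higher in 12 of 20 compared and lower in 0, for example PCDHGB6 (7.08 and 161 CPM). The rest of the 53 stayed below 10 CPM and went both ways. PCDHGA11 (6.55 and 0.604 CPM) and PCDHGA6 (5.11 and 0.459 CPM) were below the control, and PCDHB8 (1.22 and 4.86 CPM) was above it. The counts over those compared therefore give no direction for the whole cluster. Members of a protocadherin cluster share their last exons, so their reads are uncertain.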
